A study of Mus musculus with 2 samples.

Results

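The genes described here are 8 YAP target genes that lie outside the CCN family: Ankrd1, Amotl1, Amotl2, Ajuba, Crim1, Fjx1, Axl and Tgfb2. They were chosen by name, with their CHIR99021 over control ratios in these arrays already known, so those ratios are a description and support nothing beyond themselves. The array carries 37074 gene names, of which 18837 genes had a probe well above background on at least 1 array. The 8 genes are represented by 10 probes, with 2 probes each for Axl and Tgfb2, and all 10 probes were well above background on both arrays.

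The cells were mDE6, a mouse line labelled as odontogenic epithelial. Control cells were labelled as DMSO treated and the others as treated with 5 mM CHIR99021, both at 6 h; the methods of the study give the dose as 5 μM and call the control untreated. CHIR99021 inhibits GSK-3, the kinase that marks β-catenin for degradation, and so activates the β-catenin pathway. Total RNA was labelled with Cy3 and hybridised to 1 Agilent mouse array per condition, both on the same slide, so no ratio below has a replicate check, no test was possible and the number of arrays limits the precision.

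YAP and its paralogue TAZ are transcriptional co-activators without DNA binding of their own, which reach their target genes through the TEAD factors. In the Hippo pathway MST kinases activate LATS kinases, which phosphorylate YAP and TAZ and so keep them in the cytoplasm. In epithelia this pathway reads cell density, cell shape and junctions. Several of its target genes encode proteins that act back on it, among them angiomotin-like proteins, Ajuba and Lats2, while others encode secreted ligands or receptors.

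The epithelial label was set against marker genes. Of the dental epithelium markers, Cdh1, Epcam, Krt8 and Dsp were not well above background on either array, and Krt18 was so on the control array alone. Krt5, a basal cell keratin, was not well above background in control cells and was at least 7.24-fold higher after CHIR99021, with a Z-score of 2.88. It was called higher by the ratio rule used below, also with the Z-score. Its spot stood in row 379 of the array, past row 192, as did 92.9% of tested probes that changed over 4-fold. The part of this in the Krt5 ratio was not tested. Krt14, Trp63 and Perp were well above background on both, Krt14 with signals of only 48.5 and 54.6. Of 4 Trp63 probes 2 were well above background on any array, the dimmer one, at 77.1, in control cells alone. Of 6 ameloblast genes, 5 were not well above background, whereas 8 of 9 mesenchyme markers were measured, Vim, Col1a1 and Col1a2 among them. The epithelial markers were thus mixed, with Cdh1 and Epcam among the absent ones, and the line is called mDE6 throughout. Of the 8 measured mesenchyme markers Pax9 was called lower at a ratio of 0.659 and Twist1 and Msx1 were called higher at 1.55 and 1.54 by the ratio rule used below, none of them with the Z-score. The part of cell identity in the ratios of the YAP targets was not tested.

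The YAP targets lay on both sides of a ratio of 1. Amotl2 and Crim1 were lower after CHIR99021, Fjx1 and Tgfb2 were higher, and Ankrd1, Amotl1, Ajuba and Axl had ratios between the criteria. A gene was called lower at a ratio of at most 0.66 and higher at a ratio of at least 1.5, where each signal was divided by the 75th percentile of its array. By this rule 2 of 8 genes were called lower, beside 9.67% of all tested genes, and 2 of 8 were called higher, beside 8.05% of all tested genes. With a Z-score of at most -2.0 or at least 2.0 also required, the same 4 genes were called, beside 3.22% of tested genes called lower and 2.63% called higher. The Z-score is the distance of a log2 ratio from the mean of the 500 probes nearest in signal, in SDs. Among the tested genes are some with a signal near the background on 1 array; of the genes with a probe well above background on both arrays, like the 8 described here, 5.77% were called lower and 5.06% higher by ratio. Because the genes were chosen with these ratios known, nothing is read from the counts.

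**Figure D1:**
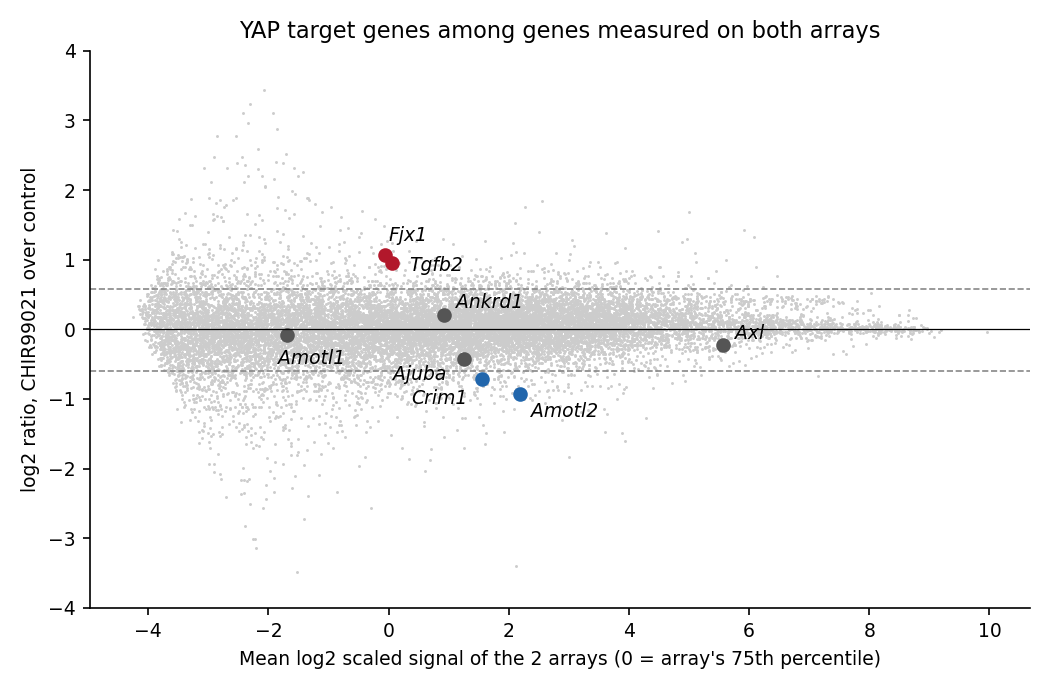
Each grey point is 1 of 16886 genes measured on both arrays, with the mean log2 scaled signal on the horizontal axis (0 is the 75th percentile of an array) and the log2 ratio of CHIR99021 over control on the vertical axis; dashed lines mark ratios of 0.66 and 1.5. Amotl2 and Crim1 (blue) lie under the lower line, Fjx1 and Tgfb2 (red) above the upper line, and Ankrd1, Amotl1, Ajuba and Axl (dark grey) between the lines.

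In log2 units the 8 genes ran from -0.93 for Amotl2 to 1.06 for Fjx1, a span of 1.99. The middle 80% of all genes measured on both arrays lay between -0.44 and 0.44. Of the 8 genes, 5 had a log2 ratio below 0 and 3 had one above 0. Their median was -0.15, and the median over all tested genes was 0.02. The SD among the 8 log2 ratios was 0.73, against 0.41 over the genes measured on both arrays. As the 8 genes were chosen with their ratios known, nothing is read from this difference. Genes past the criteria stood on both sides of that median.

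The angiomotin-like genes gave the lowest ratio of the group and one of those nearest to 1. Angiomotin and its paralogues Amotl1 and Amotl2 are scaffold proteins of tight junctions and actin that bind YAP and hold it outside the nucleus. The Amotl2 probe read 3071 ± 307 without and 1555 ± 156 with CHIR99021, where the error is that of the scanner software's error model for the spot and not a spread between cultures. After scaling these were 6.31 and 3.31, a ratio of 0.525 and a log2 ratio of -0.93 with an error of 0.20 from the same model. The difference was 4.6 times its error, and the Z-score was -2.79. That model sets the error at about 10% of the signal on both arrays. Multiples of it therefore follow from the log2 ratio and measure no spread. Ranked among all tested genes, the ratio of Amotl2 stood at percentile 5.47. Its probe lies at chr9:102635025-102635084 of mm9 on the plus strand.

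Amotl1 had a signal of 155 ± 16.3 in control cells and 141 ± 15.2 in treated cells. Its ratio was 0.947, with a log2 ratio of -0.08 that is smaller than its error of 0.22. The log2 ratio of Amotl1 lay 0.85 above that of Amotl2. The spot stood in row 318 of the array, and 5 of its 22 measured neighbours within 3 rows and columns differed over 4-fold between the arrays, with a neighbour median of -0.12. Amot itself, the founding member of the family, had signals of 4202 and 3523 and a ratio of 0.870. Thus all 3 angiomotin genes had log2 ratios below 0, and only Amotl2 reached the criterion.

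Crim1 was the other gene called lower. It encodes a transmembrane protein with cysteine-rich repeats that binds BMPs and other growth factors at the surface of the cell that makes them. Control cells gave a signal of 1839 ± 184 and treated cells one of 1082 ± 108, giving scaled signals of 3.78 and 2.31. The ratio was 0.610, the log2 ratio -0.71 with an error of 0.20, and the Z-score -2.19. An interval of 1 error around the log2 ratio of Crim1 crosses the criterion of 0.66, which that of Amotl2 does not. The probe lies at chr17:78775299-78775358 of mm9 on the plus strand. Of 4 other genes with related cysteine-rich repeats, Chrd was not well above background, and Chrdl1, Kcp and Bmper had ratios of 1.03, 0.875 and 1.39, none of them called.

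Ajuba was not called and had the lowest ratio of the 4 uncalled genes. It is a LIM-domain scaffold of adherens junctions that binds LATS kinases and restrains them. The signal was 1353 ± 135 in control cells and 966 ± 96.7 in treated cells, a ratio of 0.740. Its log2 ratio of -0.43 was 2.1 times its error of 0.20, the Z-score was -1.36, and the ratio stood at percentile 14.3 of all tested genes. The related LIM genes Limd1 and Wtip had ratios of 1.31 and 1.12, on the other side of 1 from Ajuba. None of the 3 was called.

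**Figure D2:**
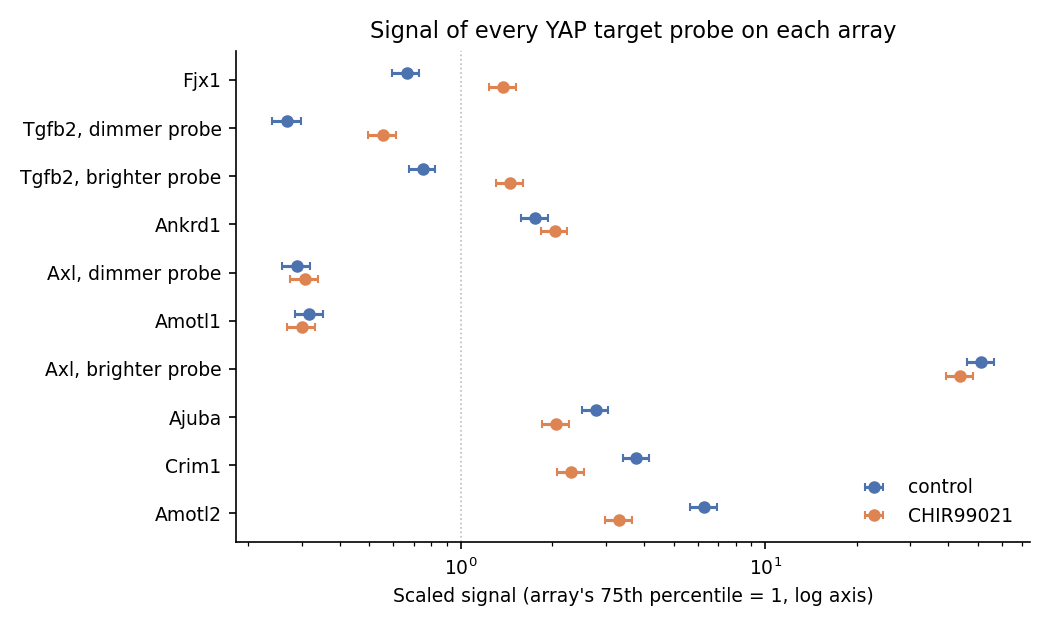
Scaled signals of the 10 probes on a log axis, where 1 is the 75th percentile of an array; blue points are the control array, orange points the CHIR99021 array, and bars are the error of the scanner software's model for each spot. The pairs of points are apart without overlap of the bars for Amotl2, Crim1, Ajuba, Fjx1 and both Tgfb2 probes, and the bars overlap for Axl, Amotl1 and Ankrd1; positions of different probes along the axis are not comparable as levels of their genes. Each bar is about 10% of its signal by the setting of that model, so overlap is no measure of spread.

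Ankrd1 was on the higher side without reaching the criterion. It encodes a cardiac ankyrin repeat protein of the nucleus and the sarcomere and is, with Ctgf and Cyr61, one of the genes most used to read out YAP activity. The signal was 854 ± 85.5 in control cells and 954 ± 95.6 in treated cells. The ratio was 1.16 and the log2 ratio 0.21, about the size of its error of 0.20, with a Z-score of 0.57. Ctgf and Cyr61, both secreted CCN proteins, had ratios of 0.280 and 0.631 in the same arrays. The 3 readout genes thus lay on different sides of 1. Of the other ankyrin repeat genes of its family, Ankrd23 had a ratio of 1.26 and Ankrd2 was not well above background.

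Axl was measured by a pair of probes that lay on different sides of 1. It encodes a receptor tyrosine kinase that binds Gas6 and takes part in cell survival and the clearance of dying cells. The probe with the higher signal, at chr7:26542335-26542394 of mm9, gave 24923 ± 2492 in control cells and 20516 ± 2052 in treated cells. Its ratio was 0.854 and its log2 ratio -0.23, 1.1 times its error of 0.20. The other probe, at chr7:26545782-26545841, gave 141 ± 14.9 and 144 ± 15.5, a ratio of 1.06 and a log2 ratio of 0.09 with an error of 0.22.

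Both Axl probes carry the same transcript name, with starts 1710 bases apart in the transcript and 3447 bases apart in the genome. Their log2 ratios differed by 0.31. Among 3872 genes with 2 probes measured on both arrays, that difference had a median size of 0.13 and a 90th percentile of 0.49, so the Axl probes differed more than the typical pair and stayed inside the range of most. Neither probe was called. The other TAM receptor Tyro3 and the ligands Gas6 and Pros1 had ratios of 0.757, 0.836 and 0.844, and Mertk was not well above background. All 4 measured genes of this receptor and ligand list lay below 1 without being called.

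Fjx1 had the highest ratio of the 8 genes. It is the mouse counterpart of four-jointed, a Golgi kinase that in Drosophila modifies the protocadherins Fat and Dachsous, which act upstream of Hippo. Control cells gave 323 ± 32.8 and treated cells 647 ± 65.0, or 0.663 and 1.38 after scaling. The ratio was 2.08, the log2 ratio 1.06 with an error of 0.21, 5.1 times that error, and the Z-score 2.88. The ratio stood at percentile 96.2 of all tested genes and was 3.96 times that of Amotl2. The probe lies at chr2:102289689-102289748 of mm9 on the minus strand.

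Of the protocadherins of that pathway, Fat4 was called lower. It had signals of 282 in control cells and 70.9 in treated cells, with a ratio of 0.261 and a Z-score of -3.94. Dchs1 had a ratio of 0.793 and was not called, its second probe had a ratio of 1.19, and Dchs2 was not well above background.

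Tgfb2 was the other gene called higher, and both of its probes were above the ratio criterion. It encodes a secreted ligand of the TGF-β family that is made as a latent precursor and signals through TGF-β receptors to SMAD2 and SMAD3. The probe with the higher signal, at chr1:188449333-188449392 of mm9, gave 365 ± 36.8 in control cells and 681 ± 68.4 in treated cells. Its ratio was 1.94, its log2 ratio 0.95 with an error of 0.21, and its Z-score 2.53. The second probe, at chr1:188447534-188447593, gave 131 ± 14.0 and 260 ± 26.5, a ratio of 2.06 and a log2 ratio of 1.04. The Z-score of the second probe was 1.98, just under the Z-score criterion.

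The Tgfb2 probes start 1799 bases apart in both the transcript and the genome, and their log2 ratios differed by 0.09, less than the median pair. Among the other ligands and receptors, Tgfb3, Tgfbr1, Tgfbr2 and Tgfbr3 had ratios of 0.846, 0.944, 1.30 and 0.894, and Tgfb1, named here with its value already known, had a ratio of 0.918. None of these 5 was called.

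The error of a ratio was also read from probes printed 10 times on each array. At the signals of the 10 probes the SD of the log2 ratio over such spots had a median of 0.03, over 282 repeated probes whose highest SD was 0.25. This SD covers the printing and scanning of spots within 1 pair of hybridisations and neither the labelling nor the culture. Large differences between the arrays were uneven over the slide: of 1277 tested probes that changed over 4-fold, 92.9% stood past row 192 of 384, where 51.6% of tested probes stood. None of the 5 called probes of the 8 genes stood past row 192, and 3 of the 5 uncalled ones did, those of Ankrd1 and Amotl1 and the second Axl probe. The neighbours of the 5 called spots had median log2 ratios between 0.00 and 0.08, with none changed over 4-fold.

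**Figure D3:**
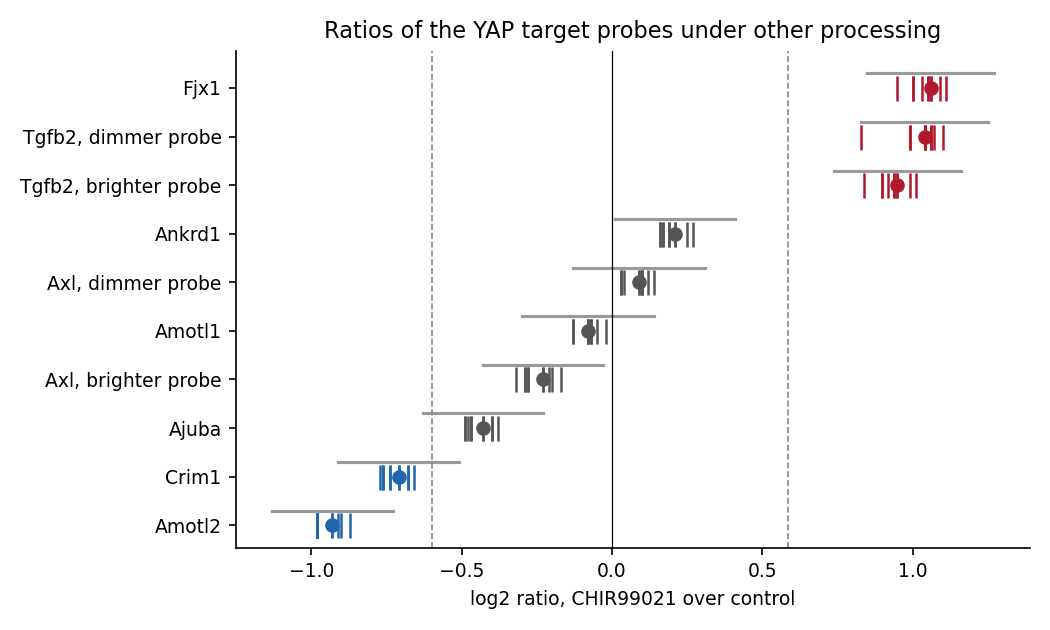
The log2 ratio of CHIR99021 over control of each of the 10 probes; points are the values reported, ticks those under 10 other ways of scaling, background correction or spot handling, and grey bars 1 error of the scanner software's model on each side. Dashed lines mark ratios of 0.66 and 1.5; no tick of Amotl2, Crim1, Fjx1 or Tgfb2 falls between the lines and no tick of another gene falls outside them.

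Across 10 other ways of scaling the arrays, correcting background or handling spots, the ratio of Amotl2 ranged from 0.506 to 0.546, that of Crim1 from 0.588 to 0.635, and that of Fjx1 from 1.94 to 2.16. The first Tgfb2 probe ranged from 1.79 to 2.02 and the second from 1.77 to 2.14. Ajuba ranged from 0.713 to 0.770 and Ankrd1 from 1.12 to 1.21. Every probe kept its side of 1 under these 10 alternatives, including Amotl1, whose ratio ranged from 0.913 to 0.985, and both Axl probes.

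A further 16 YAP target genes from the same kind of list were all measured. Of these 3 were called lower, Ctgf, Lats2 and Cyr61, and 1 was called higher, Dock5 at 1.52, which did not pass with the Z-score; of all tested genes 9.67% were called lower and 8.05% higher. Lats2, a Hippo kinase that is itself a YAP target, had a ratio of 0.508, and its other probes had ratios of 0.416 and 0.461. Both the Cyr61 spot and 2 of the 3 Lats2 spots stood past row 192. The 4 uncalled genes of highest signal, Arhgef17, Myof, F3 and Ccdc80, had ratios of 0.745, 1.05, 0.745 and 1.07. The median log2 ratio of the 16 was -0.15, beside the 0.02 of all tested genes. Of the 5 measured CCN genes 3 were called lower, Wisp2 at 0.526 besides Ctgf and Cyr61, and Wisp1 and Nov had ratios of 1.42 and 1.25.

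**Figure D4:**
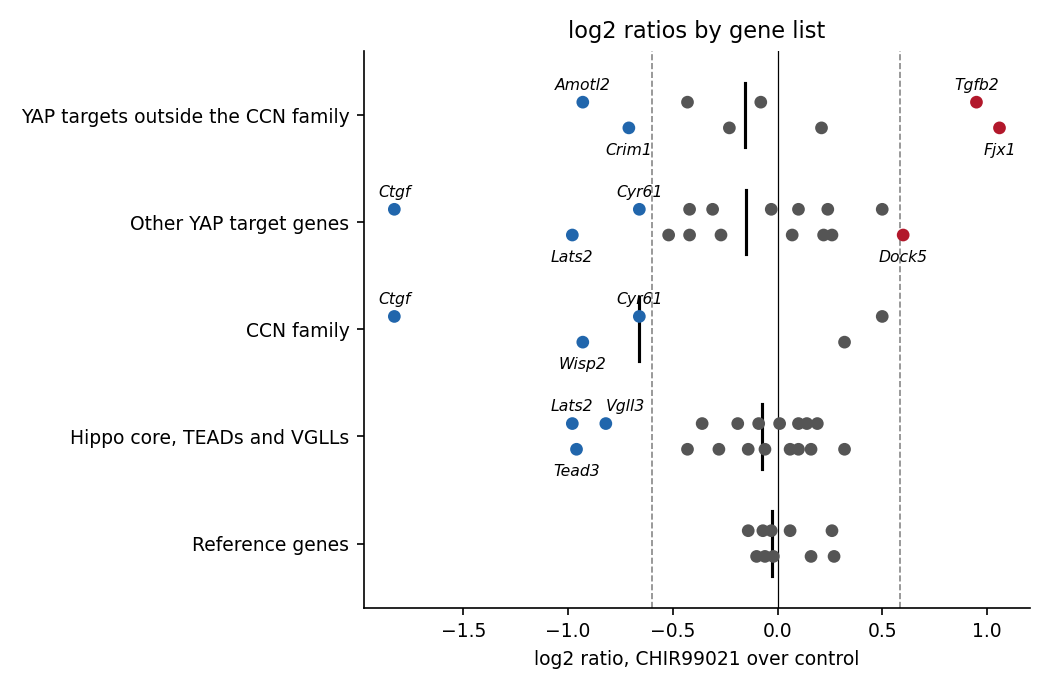
Each point is the log2 ratio of CHIR99021 over control of 1 gene measured on both arrays, by list; blue genes were called lower, red genes higher, and grey genes neither, with dashed lines at ratios of 0.66 and 1.5 and a black bar at the median of each list. The YAP targets outside the CCN family reach past both lines, with medians of -0.15 for them and for the other YAP targets and -0.03 for the reference genes; Ctgf and Cyr61 appear both among the other YAP targets and in the CCN family, and Lats2 in 2 lists.

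The transcripts of YAP and TAZ themselves were near a ratio of 1. Yap1 had a ratio of 0.906, with 0.913 for its second probe, and Wwtr1, which encodes TAZ, had a ratio of 0.876. Of 18 Hippo core, TEAD and VGLL genes 3 were called lower and 0 higher, beside the same 9.67% and 8.05% of all tested genes. The former were Lats2, Tead3 at 0.515, one of the TEAD factors that bring YAP to DNA, and Vgll3 at 0.568, a co-factor that binds TEADs in place of YAP; the spot of Tead3 stood past row 192. Nf2 and Wwc2, both upstream regulators of LATS, had ratios of 1.04 and 0.778. Transcript ratios say nothing of the phosphorylation or location of the YAP protein, which was not measured on these arrays.

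As a check of the treatment, 8 of 11 tested Wnt feedback genes were called higher by the ratio rule, beside 8.05% of all tested genes: Axin2, Lef1, Nkd1, Nkd2, Rnf43, Znrf3, Tcf7 and Apcdd1. With the Z-score also required 5 remained, without Axin2, Znrf3 and Tcf7, and Axin2 was not well above background in control cells. The spots of Axin2, Lef1, Nkd1, Nkd2 and Rnf43, 5 of the 8, stood past row 192, and the part of this in their ratios was not tested. Nkd1, an inhibitor of the pathway, was not well above background in control cells and was at least 25.8-fold higher after CHIR99021. Notum, Lgr5 and Wif1 were not called, at ratios of 1.30, 1.39 and 0.713. Sp5 and Dkk1 were not well above background on either array. None of 10 reference genes was called, with log2 ratios between -0.14 and 0.27 for their probes of highest signal. Over all their probes the values ran from -0.37 for Ywhaz to 0.52 for Gapdh, whose other 6 probes lay between 0.31 and 0.52.

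The promoters of the YAP targets were searched for short motifs of the factors concerned. RefSeq promoter windows on GRCm38.p6, of 250 bases before and 50 after the start of the gene, were found for 7 of the 8 genes. On both strands, GGAATG, the motif that TEAD factors bind, was found in the windows of 5 genes, Ajuba, Amotl2, Ankrd1, Axl and Crim1, and in 14.7% of 32851 promoter windows. Its longer form GGAATGT, which overlaps it by definition, was found for Ajuba, Amotl2 and Axl, and in 3.85% of all windows. CTTTGAT, a TCF/LEF motif, was found for Amotl2 alone among the 7 and in 3.73% of all windows. CTTTGAA, a second TCF/LEF motif, and the AP-1 motif TGANTCA were found for none of the 7, and in 5.14% and 7.81% of all windows. These matches are a description of letters and not of bound sites.

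The 250 bases before the start are printed for 4 genes, both called lower, the called-higher Tgfb2 that has no match, and Ankrd1 that has 2 matches to GGAATG, with each matched motif in capitals, read 5′ to 3′ on the strand of the gene. The Amotl2 window is chr9:102717554-102717803 on the plus strand, that of Crim1 chr17:78199998-78200247 on the plus strand, that of Ankrd1 chr19:36119845-36120094 on the minus strand, and that of Tgfb2 chr1:186705990-186706239 on the minus strand.
Amotl2: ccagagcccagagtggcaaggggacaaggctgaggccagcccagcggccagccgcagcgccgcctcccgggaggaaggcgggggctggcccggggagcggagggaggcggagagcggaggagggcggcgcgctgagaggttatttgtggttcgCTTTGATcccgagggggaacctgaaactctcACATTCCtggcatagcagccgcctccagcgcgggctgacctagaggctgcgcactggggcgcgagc
Crim1: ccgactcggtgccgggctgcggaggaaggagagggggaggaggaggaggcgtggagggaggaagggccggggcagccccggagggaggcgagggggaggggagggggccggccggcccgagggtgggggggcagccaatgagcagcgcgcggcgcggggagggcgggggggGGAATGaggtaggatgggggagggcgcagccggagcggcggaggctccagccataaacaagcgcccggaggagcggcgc
Ankrd1: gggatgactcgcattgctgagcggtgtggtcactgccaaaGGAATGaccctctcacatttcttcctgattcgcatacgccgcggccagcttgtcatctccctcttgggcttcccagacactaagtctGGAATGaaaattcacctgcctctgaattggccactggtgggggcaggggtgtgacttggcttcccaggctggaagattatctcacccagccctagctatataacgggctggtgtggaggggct
Tgfb2: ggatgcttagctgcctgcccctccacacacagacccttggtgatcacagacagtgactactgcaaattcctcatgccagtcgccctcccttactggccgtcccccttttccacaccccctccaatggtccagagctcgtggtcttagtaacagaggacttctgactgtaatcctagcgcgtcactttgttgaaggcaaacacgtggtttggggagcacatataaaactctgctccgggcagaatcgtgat

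In the Amotl2 sequence the TCF/LEF motif CTTTGAT stands at positions -97 to -91 from the start and the TEAD motif, read on the opposite strand, at positions -66 to -60. The Crim1 match to GGAATG stands at positions -79 to -74, in a window of 77.6% G and C. The Ankrd1 matches stand at positions -210 to -205 and -123 to -118. Of the 5 genes with a TEAD motif in the window 2 were called lower and 3 were not called, and of the windows without one that of Tgfb2 belongs to a gene called higher and that of Amotl1 to a gene not called.

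**Figure D5:**
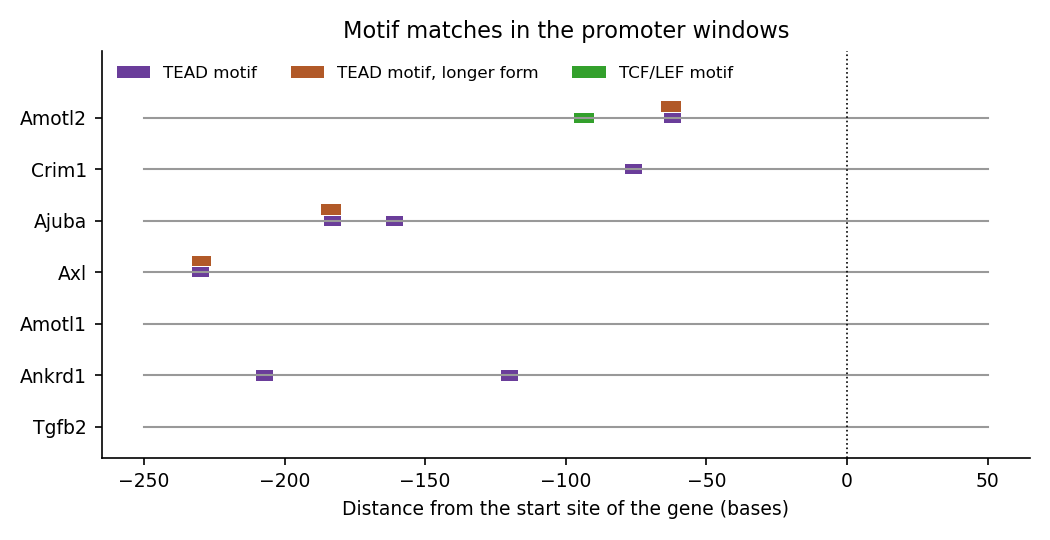
Matches of the TEAD and TCF/LEF motifs in the promoter windows of the 7 genes, ordered from the lowest ratio (Amotl2, top) to the highest (Tgfb2, bottom); the horizontal axis is the distance in bases from the start of the gene (dotted line), and each box spans 1 match. Amotl2, Crim1, Ajuba, Axl and Ankrd1 have at least 1 TEAD box, Amotl2 has the TCF/LEF box, and Amotl1 and Tgfb2 have no box.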

How the data were processed

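The authors labelled RNA of mDE6 cells with Cy3 and deposited, for 1 array per condition, the background-subtracted intensity of each spot; arrays were not normalized to each other in these values. The software was Agilent Feature Extraction, 10.7.1.1 in the file headers and 9.5.1.1 in the submitters' notes. The methods of the study name a human array, whereas the files hold a mouse design with mm9 coordinates. The authors also deposited a table of normalized intensity values, used as an alternative; its normalization is not named, and its 2 columns, once sorted, were equal within 0.001 at 99.8% of positions.

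Control spots and outlier spots were left out, spots of a probe were averaged, and each array was divided by the 75th percentile of its signals (486.7 for control and 469.2 for CHIR99021). Of 59305 spots, 49.8% in control and 48.3% in CHIR99021 were well above background, and 28066 probes were so on at least 1 array. A gene took its probe of highest mean signal. Python 3.11.15, numpy 2.4.6, pandas 2.3.3, matplotlib 3.10.9, R 4.3.3 and limma 3.58.1 were used. The calling rule was also run on simulated data, and the outcome is not reported here. That run holds no spread between cultures of these cells, so nothing is read from it about the calls of the genes described. The promoter sequences are from RefSeq on GRCm38.p6; Fjx1 is not among them. The 10 probes carry accessions that match the same symbols in RefSeq. No mm9 annotation was used here, so exon and intron positions of probes are not given. With 1 array per condition there was no statistical test.

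The genes, lists, criteria and motifs were chosen with earlier results of these data known. Every probe of the 8 genes is reported. One of the cell type markers is not reported here. Of each list, the genes called by ratio are named with up to 4 others of highest signal. Ptpn14 is named besides, for its probe that passed both criteria. The alternatives were quantile, cyclic loess, median and spike-in scaling, the percentile over detected probes, no scaling, normexp with an offset of 50, the authors' table, outlier spots kept, a floor on low signals, other filters on dim probes, other rules for genes with several probes, the Z-score and a 2-fold criterion.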

Additional observations from a re-analysis of the deposited data

How the results depend on the processing

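Of 17 alternatives, 16 called the same 4 of the 8 genes, Amotl2 and Crim1 as lower and Fjx1 and Tgfb2 as higher; at 2-fold 0 genes were called lower and 1 higher, Fjx1. Every gene kept its side of 1 under all 17 except Axl, whose log2 ratio was 0.09 when the probe with the highest ratio was taken. The median log2 ratio of the 8 genes, -0.15, was -0.21 with the percentile over detected probes and with no scaling, -0.19 in the authors' table, -0.12 with median scaling, -0.10 with spike-in scaling, -0.07 with the mean over probes and 0.00 with the highest-ratio probe. Among all tested genes, 1822 were called lower and 1516 higher. These counts were 946 and 757 at 2-fold, 3354 and 3372 with no filter on dim probes, 909 and 907 with normexp, 974 and 854 when a probe had to be well above background on both, and 606 and 495 with the Z-score. Without the filter, the median over all genes shifted by 0.16 in log2 units. The share of lower among all calls, 54.6%, stayed between 47.9% and 60.5% under other scalings. No paired analysis was possible because there is only 1 array of each kind, and leaving out an array would leave no comparison. Signals near the background and a single culture per condition limit what the ratios can show: the log2 ratios of Amotl1 and the second Axl probe were smaller than their error of 0.22 in the scanner software's model, though larger than the SD of 0.03 between repeated spots.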
